A study of Homo sapiens with 4 samples.

Results

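The 10 genes described here form and remove the nucleoside adenosine, carry it across the cell membrane or receive it as a signal: ADA, ADK, PNP, AHCY, ENTPD1, NT5E, DPP4, ADORA2B, SLC29A1 and SLC29A2. They were taken by gene symbol from a table of 25283 genes, and all 10 were in the table and passed the filter on low counts, which left 17317 tested genes. The set was chosen by the measured difference of ADA: it was drawn up after ADA had been seen among the genes with the smallest p in the comparison of U1_OE with control cells, and the other 9 were added by function. The values of the 10 genes in that comparison are therefore a description and carry no test.

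RNA was sequenced from 2 libraries of U1_OE cells and 2 libraries of control cells, all made from the human embryonic stem cell line H1 by way of neural progenitors and neuronal precursors. U1_OE cells carried a lentiviral vector that overexpresses U1 snRNA, the small nuclear RNA that pairs with 5′ splice sites, and control cells, labelled as wild type, carried an empty vector. The vector was given for 36 hours. For control samples the treatment text also names the overexpression vector, and the grouping rests on the titles and genotype labels. All 4 libraries come from 1 cell line, and no label states whether libraries of 1 group were separate cultures, so p-values and SDs measure only the spread between these libraries.

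Estimated counts summed to 16713505 and 19057423 in the U1_OE libraries and to 17061796 and 17636307 in the control libraries. The label calls the cells neurons, but their defining transcripts were low. The young-neuron gene DCX reached 0 and 0.157 CPM (read counts relative to library size) in U1_OE and 0 and 0.111 CPM in control libraries. Of 10 neuronal markers 9 were measured and 1, TUBB3, reached 10 CPM in every library, whereas 10 of 10 mesenchymal markers did. The summed level of the neuronal markers was 284 and 358 CPM in U1_OE and 182 and 119 CPM in control libraries, and that of the mesenchymal markers 74801 and 65728 CPM in U1_OE and 54295 and 71946 CPM in control libraries. Of 6 myeloid markers 4 were measured, with a sum of 72.2 and 82.2 CPM in U1_OE and 49.2 and 41.5 CPM in control libraries, nearly all of it CD68. All 6 endothelial markers were measured, with a sum of 49.9 and 80.0 CPM in U1_OE and 31.0 and 37.8 CPM in control libraries, while CDH5 and VWF stayed under 1 CPM in every library. The neuronal, myeloid and endothelial sums were thus higher in both U1_OE libraries, each mostly from 1 gene. TUBB3 made up most of the neuronal sum, with 264 and 338 CPM in U1_OE and 159 and 104 CPM in control libraries. PECAM1 made up most of the endothelial sum, with 34.4 and 64.2 CPM in U1_OE and 22.9 and 29.3 CPM in control libraries, whereas KDR and CDH5 were lower in both U1_OE libraries. Over all tested genes, both U1_OE libraries were above both controls for 19.7% and below both for 22.0%. They were above both for 2 of 9 measured neuronal, 5 of 10 mesenchymal, 2 of 4 myeloid and 3 of 6 endothelial markers, and below both for 1, 0, 0 and 2 of them. The 5 mesenchymal markers were COL1A1, THY1, PDGFRB, POSTN and TAGLN. The part of these cell types in the results on adenosine genes was not tested. Lymphocytes are rich in ADA and DPP4, and 2 of 8 lymphoid markers were measured, MS4A1 and NKG7, which summed to 1.11 and 0 CPM in U1_OE and 0 and 0.387 CPM in control libraries. In bulk RNA of this kind, fewer cells of a type and less RNA per cell cannot be told apart.

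Adenosine is made outside cells from released ATP: ENTPD1 (CD39) cuts ATP and ADP to AMP, and NT5E (CD73) cuts AMP to adenosine. Adenosine then binds receptors such as ADORA2B, enters cells through the equilibrative transporters SLC29A1 and SLC29A2, is phosphorylated to AMP by ADK (adenosine kinase), or is deaminated to inosine by ADA (adenosine deaminase). PNP (purine nucleoside phosphorylase) splits inosine to hypoxanthine, and AHCY releases adenosine inside cells from S-adenosylhomocysteine, the product of methylation reactions. ADA can also sit on the cell surface, held by DPP4 (CD26). Loss of ADA or PNP in people causes immune deficiency, and in the brain adenosine is a dampening signal whose level depends on ADK.

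The results turn on ADA and on the enzymes that compete with it (ADK) or follow it (PNP), so the 250 bases before the RefSeq start site of these 3 genes are shown, as RefSeq gives them on GRCh38.p14, with the core of the GC box in capitals. The GC box, the letters GGGCGG on either strand (CCGCCC on the other), is a binding motif of Sp1 family factors. For all 3 genes this start lies inside the wider GENCODE v29 span, which joins all annotated transcripts and is the span used for positions and distances here, so the ADA and PNP windows lie within those spans and the ADK window partly does.
ADA (chr20:44651700-44651949, minus strand): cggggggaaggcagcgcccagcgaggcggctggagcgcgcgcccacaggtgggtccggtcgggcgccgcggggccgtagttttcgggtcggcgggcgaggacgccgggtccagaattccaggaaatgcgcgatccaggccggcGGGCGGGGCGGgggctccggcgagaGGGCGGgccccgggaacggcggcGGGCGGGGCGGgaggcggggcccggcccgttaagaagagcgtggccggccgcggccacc
ADK (chr10:74150971-74151220, plus strand): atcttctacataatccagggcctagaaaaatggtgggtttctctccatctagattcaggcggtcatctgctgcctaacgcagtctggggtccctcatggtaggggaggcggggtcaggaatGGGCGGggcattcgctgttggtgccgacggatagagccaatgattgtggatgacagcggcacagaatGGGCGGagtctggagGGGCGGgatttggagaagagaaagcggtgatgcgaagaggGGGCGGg
PNP (chr14:20469156-20469405, plus strand): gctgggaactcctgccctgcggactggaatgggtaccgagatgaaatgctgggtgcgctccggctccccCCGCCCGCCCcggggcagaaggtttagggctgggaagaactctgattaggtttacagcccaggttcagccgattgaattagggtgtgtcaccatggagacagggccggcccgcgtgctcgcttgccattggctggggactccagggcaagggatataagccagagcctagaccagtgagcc
The ADA window held 5 GC box cores, of which 2 pairs overlap by 1 base, with a GC content of 80.0%. The ADK window, at the first of 2 start sites listed for the gene, held 4 cores and 57.6% GC, and the PNP window held 2 overlapping cores and 62.0% GC. Of the 9 member promoters that were matched, 7 held at least 1 core, against 65.2% of the 11828 promoters of tested genes and 42.3% of all 27305 promoters. A count of 5 or more cores was found in 7.47% of promoters of tested genes. The letters TATAAA, on either strand, were in 0 of the 9 windows, in 5.77% of promoters of tested genes and in 11.1% of all promoters. A match of letters does not show that a factor binds there.

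ADA was the gene of the set that stood lower in U1_OE cells. Its level was 40.2 and 34.7 CPM in U1_OE libraries (652 and 661 counts) and 116.0 and 149.9 CPM in control libraries (1971 and 2711 counts). The 2 U1_OE libraries lay close together, 1.16-fold apart, and both were far below the lower control library. The mean was 37.4 ± 3.89 CPM in U1_OE and 133 ± 24.0 CPM in control libraries (SD, n = 2 each), a ratio of 0.281. The log2 fold change of ADA by edgeR was -1.83 ± 0.19 (SE), and it lay between -1.98 and -1.63 when 1 library was left out of the edgeR fit. ADA lies on chromosome 20, from 44619522 to 44652233 on the minus strand (GENCODE v29, GRCh38), and its far end overlaps PKIG on the opposite strand. PKIG, an inhibitor of protein kinase A, had 57.9 and 31.5 CPM in U1_OE and 30.6 and 39.4 CPM in control libraries, so its groups overlapped. Use of the strand in counting is stated in none of the sources used here, so reads in the overlap cannot be assigned to either gene with certainty.

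ADK, which returns adenosine to AMP and so competes with ADA for it, was higher in both U1_OE libraries than in both control libraries. It had 40.2 and 43.6 CPM in U1_OE and 33.6 and 28.7 CPM in control libraries, a ratio of means of 1.35 and a log2 fold change of 0.43 ± 0.15. The gap between the groups was larger than the spread within either of them, but small next to that of ADA. ADK spans 558119 bases of chromosome 10, the longest span among the 10 genes, against 32712 bases for ADA and 8141 for PNP. Within each library, the ratio of ADK to ADA counts was 1.00 and 1.26 in U1_OE and 0.290 and 0.191 in control libraries. This ratio does not depend on how libraries are scaled, but it carries the length of both genes and can be compared only between libraries. On the log2 scale it averaged 0.17 ± 0.23 in U1_OE and -2.09 ± 0.42 in control libraries (SD, n = 2 each), a difference of 2.25. The set was chosen by the difference of ADA, which this ratio carries, so the ratio adds no result beyond the levels of the 2 genes.

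PNP, the next enzyme after ADA, did not show one pattern in the 2 U1_OE libraries. It had 35.2 and 81.5 CPM in U1_OE and 35.7 and 19.9 CPM in control libraries. U1_OE replicate 1 was thus level with control replicate 1, and U1_OE replicate 2 was 2.32-fold above its partner in the group. The log2 fold change of PNP was 1.07 ± 0.49 over all libraries, 0.34 without U1_OE replicate 2, 1.56 without U1_OE replicate 1, 1.58 without control replicate 1 and 0.71 without control replicate 2. The ratio of PNP to ADA counts was 0.876 and 2.35 in U1_OE and 0.307 and 0.132 in control libraries. In each U1_OE library it was thus above both controls, as the level of PNP alone was not. ADA divides it, and the set was chosen by the difference of ADA, so this separation is no result about PNP. AHCY was the steadiest gene of the set. It had 126.7 and 136 CPM in U1_OE and 132 and 127 CPM in control libraries, overlapping groups and a log2 fold change of 0.02 ± 0.13.

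**Figure D1:**
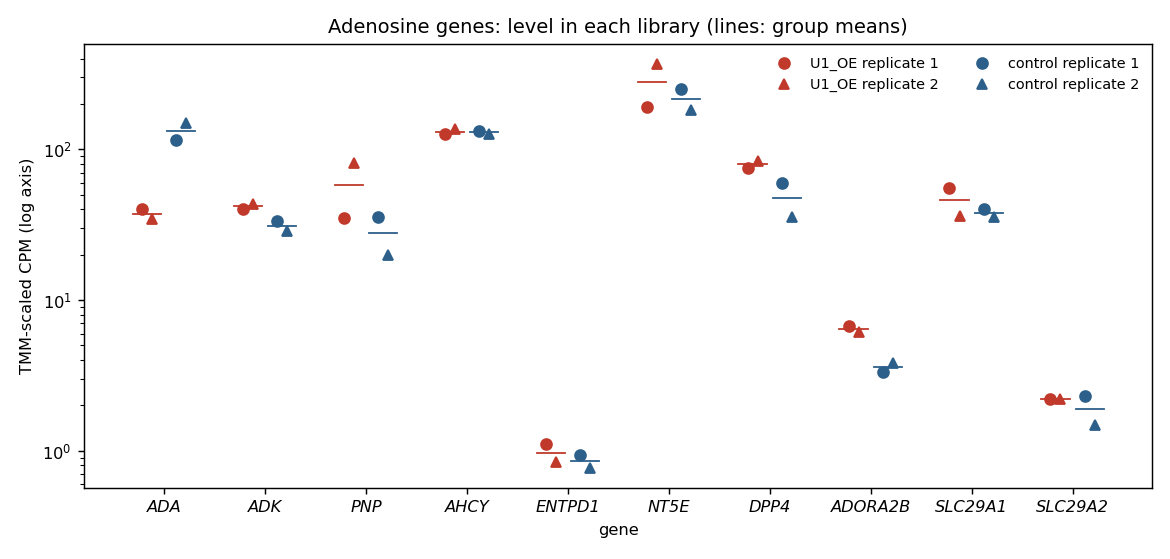
TMM-scaled CPM (log axis) of the 10 adenosine genes, 1 point per library, with U1_OE left of control and lines at the group means. ADA is the gene whose U1_OE points (40.2 and 34.7 CPM) lie below both control points, and ADK, DPP4 and ADORA2B are those whose U1_OE points lie above both.

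Outside the cell, the 2 ectoenzymes that make adenosine had overlapping groups, with a wide spread within U1_OE for NT5E and few counts for ENTPD1. NT5E, the enzyme that releases adenosine from AMP and a surface marker of mesenchymal stromal cells, had 192 and 367 CPM in U1_OE and 250.4 and 183 CPM in control libraries. The highest and the second lowest value were both from U1_OE cells, which were 1.91-fold apart, and the log2 fold change of 0.37 ± 0.35 became -0.18 without U1_OE replicate 2. ENTPD1 was near the limit of detection, with 18.2 and 15.9 counts in U1_OE and 15.7 and 13.8 counts in control libraries. Its groups overlapped, at 1.11 and 0.839 CPM in U1_OE and 0.942 and 0.774 CPM in control libraries, and at this depth only a large difference could have been seen. An annotated antisense gene, ENTPD1-AS1, overlaps it and had 4.13 and 4.56 CPM in U1_OE and 6.65 and 4.64 CPM in control libraries, more reads than ENTPD1 itself, so the ENTPD1 values are uncertain.

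DPP4, the surface peptidase that anchors ADA, was higher in both U1_OE libraries. It had 75.4 and 84.2 CPM in U1_OE and 60.2 and 35.4 CPM in control libraries, so the groups did not overlap and the controls were 1.70-fold apart. Its log2 fold change was 0.74 ± 0.28, with 1.20 when control replicate 1 was left out and 0.41 when control replicate 2 was. DPP4 thus stood on the other side of zero from ADA, the protein it holds. DPP4-DT, an overlapping transcript on the opposite strand, had 2.22 and 3.25 CPM in U1_OE and 4.53 and 0.829 CPM in control libraries.

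Of the receptors, ADORA2B, a low-affinity receptor coupled to cyclic AMP, was higher in both U1_OE libraries. It had 6.71 and 6.13 CPM in U1_OE and 3.36 and 3.82 CPM in control libraries (109 and 117 counts, against 56.8 and 68.6). The spread within a group was small beside the difference, and the log2 fold change was 0.84 ± 0.25, with 0.77 to 0.93 when 1 library was left out of the edgeR fit. ADORA1, an inhibitory receptor, had 0.554 and 0.472 CPM in U1_OE and 1.30 and 1.11 CPM in control libraries, with a log2 fold change of -1.22 ± 0.62 that edgeR did not call. ADORA2A, at 2.53 and 0 CPM in U1_OE and 0.235 and 0 CPM in control libraries, did not pass the filter on low counts, and ADORA3 was not analysed here.

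The 2 equilibrative transporters, which let adenosine flow down its gradient in either direction, showed no separation of the groups. SLC29A1 had 55.7 and 35.9 CPM in U1_OE and 40.1 and 35.6 CPM in control libraries. U1_OE replicate 1 alone stood above the rest, and the log2 fold change of 0.27 ± 0.24 was -0.07 without it. SLC29A2 had 2.22 and 2.20 CPM in U1_OE and 2.30 and 1.49 CPM in control libraries, with a log2 fold change of 0.22 ± 0.43. The log2 ratio of SLC29A1 to SLC29A2 averaged 4.34 ± 0.44 in U1_OE and 4.35 ± 0.32 in control libraries (SD, n = 2 each).

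**Figure D2:**
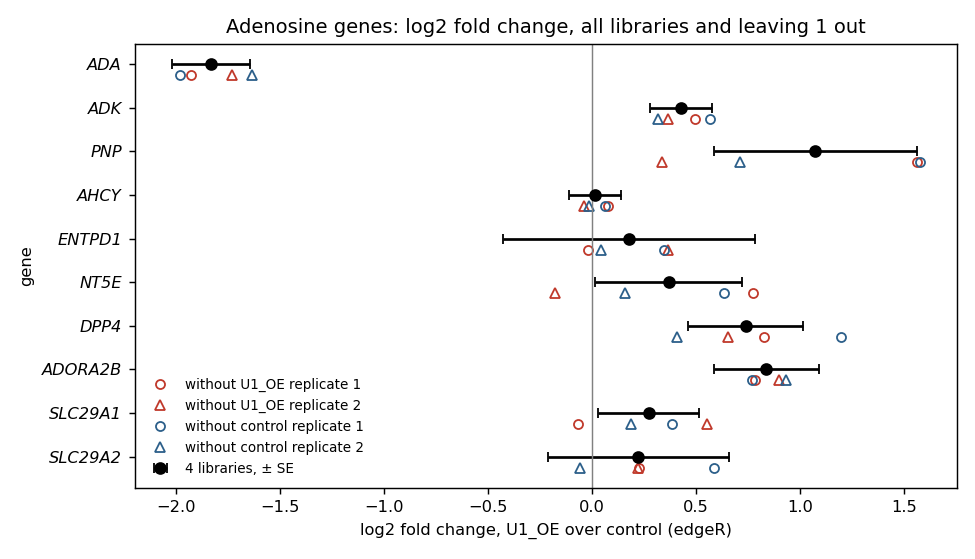
Log2 fold change of U1_OE over control by edgeR for the 10 adenosine genes, with black points and bars for 4 libraries (± SE) and open symbols for fits without 1 library. ADA stays between -1.98 and -1.63, whereas NT5E, SLC29A1, SLC29A2, ENTPD1 and AHCY cross zero in at least 1 of these fits.

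Of the 10 genes, 1 was lower and 3 were higher in both U1_OE libraries than in both controls. Over all 17317 tested genes, 22.0% were lower and 19.7% higher in that sense, 41.8% in all. The set was chosen with ADA known, so nothing is read from its count. In edgeR's quasi-likelihood test, adjusted by Benjamini-Hochberg, 0 of the 10 and 0% of the 17317 genes had an adjusted p under 0.05. In the same test, unadjusted p was under 0.05 for 4 of the 10 (ADA lower, and ADK, DPP4 and ADORA2B higher). Over all tested genes it was so for 1572 genes or 9.08% (4.36% higher and 4.72% lower). The 10 were chosen with this comparison known, so nothing is read from that count either. DESeq2 called ADA alone of the 10 over 4 libraries. The set was chosen by the difference of ADA in this same comparison, so its call is no separate result. Over all 18420 genes to which it gave an adjusted p, DESeq2 called 0.972% (0.548% higher and 0.423% lower). By limma-voom 0 genes were called. The median log2 fold change of the 10 genes was 0.32, with 9 positive and 1 negative. That of all tested genes was -0.01, with 49.3% positive. The positive values of AHCY, NT5E, SLC29A1, ENTPD1 and SLC29A2 came with overlapping groups and changed sign in some alternative fits. No shared rise is therefore read from the 9, and of the tested genes of the wider purine lists below 40% were positive.

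Levels can be compared between genes only per length, here as CPM per kilobase of annotated exon. In U1_OE libraries ADA had 14.1 and 12.1 CPM per kilobase, on either side of ADK (12.6 and 13.7), and its mean ranked 6 of the 10 genes. In control libraries ADA had 40.7 and 52.6 CPM per kilobase, within the range of NT5E (55.2 and 40.3), and its mean ranked 2. NT5E led the set in U1_OE libraries with a mean of 61.7 ± 27.3, followed by AHCY with 33.7 ± 1.63 CPM per kilobase. In control libraries NT5E averaged 47.8 ± 10.6, ADA 46.6 ± 8.40 and AHCY 33.3 ± 0.874 CPM per kilobase (SD, n = 2). NT5E and ADA did not differ beyond their spread there, and both lay above AHCY in each control library. This order depends on the length used. Per kilobase of the longest transcript, both ADA values (65.6 and 84.7) lay above both of NT5E (63.9 and 46.6) in control libraries. In control replicate 2, NT5E then lay below AHCY (53.8). A middle group of ADK, DPP4, SLC29A1 and PNP averaged 10.4 to 15.9 in U1_OE and 6.71 to 9.78 CPM per kilobase in control libraries. In control libraries the ranges of neighbours in the order ADK, DPP4, SLC29A1 and PNP overlapped, while both ADK values (10.6 and 9.01) lay above both PNP values (8.62 and 4.80). ADORA2B, SLC29A2 and ENTPD1 ranked 8, 9 and 10 in each of the 4 libraries, with means of 2.52, 0.812 and 0.140 in U1_OE and 1.41, 0.696 and 0.123 CPM per kilobase in control libraries.

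**Figure D3:**
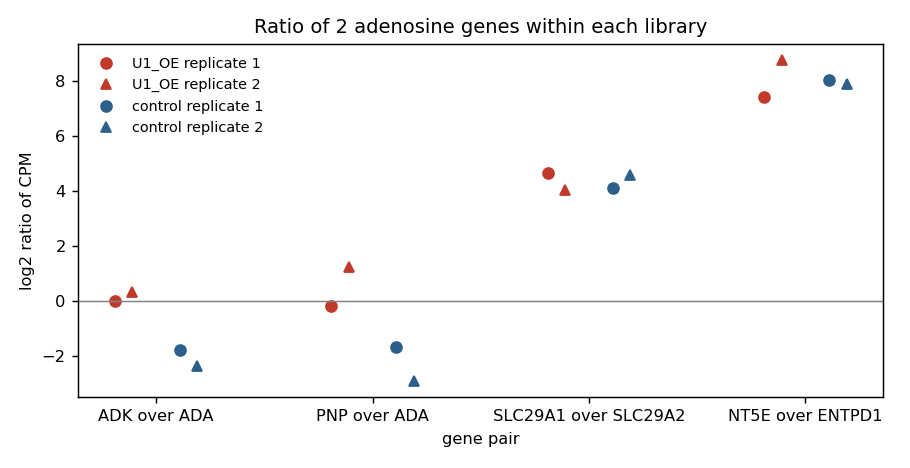
Log2 ratio of CPM between 2 adenosine genes within each library, U1_OE left of control, with a point per library. ADK over ADA is 0.00 and 0.33 in U1_OE and -1.79 and -2.39 in control libraries, whereas SLC29A1 over SLC29A2 and NT5E over ENTPD1 overlap between the groups. Ratios over ADA carry the difference by which the set was chosen.

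The wider network of purine genes was described with 9 lists of 81 genes, which leave out the 10. Of the 81 genes 70 were in the table and 60 were tested. By edgeR, 0 of the 60 had an adjusted p under 0.05 in either direction, as 0% of all tested genes did, and DESeq2 also called 0. Unadjusted edgeR p was under 0.05 for 4 higher and 1 lower genes, against 4.36% higher and 4.72% lower of all tested genes. Of the 60 genes 14 (23.3%) were higher and 16 (26.7%) lower in both U1_OE libraries than in both controls, near the 19.7% and 22.0% of all tested genes, and the median log2 fold change was -0.09.

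The other deaminases and enzymes of AMP gave 4 higher and 2 lower of 9 tested genes by that separation (19.7% and 22.0% of all tested genes), with a median log2 fold change of -0.02. ADA2, a secreted deaminase of the same reaction as ADA, had 9.11 and 13.0 CPM in U1_OE and 16.0 and 15.3 CPM in control libraries, with a log2 fold change of -0.49 ± 0.23. AMPD2, which deaminates AMP in place of adenosine, had 79.9 and 80.2 CPM in U1_OE and 55.0 and 63.1 CPM in control libraries (0.44 ± 0.14). AK1, the adenylate kinase that balances ATP, ADP and AMP, had 273 and 182 CPM in U1_OE and 141 and 133 CPM in control libraries (0.73 ± 0.22). ADA2 and ADA thus lay below, and AMPD2 and AK1 above, their controls in both libraries, none of them called by edgeR over all genes. ADA2 was named only after its values were seen. AK3 was also lower by separation (-0.42 ± 0.23), and AK4 (0.26 ± 0.20) and AK5 (0.26 ± 0.15) were higher. AMPD3 had -0.62 ± 0.85 with overlapping groups. Neither the deaminases nor the adenylate kinases thus shared 1 direction.

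Among 9 tested ectoenzymes besides the members, the median log2 fold change was -0.14. BST1, an ADP-ribosyl cyclase on the cell surface, had 29.6 and 22.2 CPM in U1_OE and 17.5 and 16.6 CPM in control libraries (log2 fold change 0.60 ± 0.20), and ENTPD6, an ENTPD1 relative that prefers other diphosphates, had 0.35 ± 0.14. The nucleoside transporters SLC29A3 and SLC29A4 had log2 fold changes of -0.16 ± 0.40 and 0.07 ± 0.34. Of 5 tested intracellular nucleotidases, 3 were lower and 1 higher by separation (22.0% and 19.7% of all tested genes). NT5M, a mitochondrial enzyme among the lower genes, had -1.09 ± 0.49 from under 2 CPM. NT5C3B had 0.24 ± 0.17 with overlapping groups. Of 8 salvage and degradation genes 6 had negative values and the median was -0.11. DCK, deoxycytidine kinase, had -0.34 ± 0.21 and its mitochondrial counterpart DGUOK 0.17 ± 0.13.

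In the methionine cycle, which feeds AHCY, the 8 tested genes had a median log2 fold change of -0.15. MAT2A, which makes S-adenosylmethionine, had 158 and 198 CPM in U1_OE and 124 and 151 CPM in control libraries (0.37 ± 0.18), and MTR, methionine synthase, had -0.29 ± 0.20. The 13 genes of de novo purine synthesis had a median of 0.04, with 4 higher (30.8%) and 3 lower (23.1%) by separation, against 19.7% and 22.0% of all tested genes. IMPDH1, of the step towards guanine nucleotides, had 74.3 and 65.0 CPM in U1_OE and 52.1 and 50.1 CPM in control libraries (0.45 ± 0.14). ADSS1, on the branch towards AMP, had 7.94 and 4.04 CPM in U1_OE and 9.54 and 12.8 CPM in control libraries (-0.90 ± 0.39). Of the 5 tested genes of ATP release and P2 receptors, GJA1, the connexin through which ATP can leave cells, had 973 and 979.8 CPM in U1_OE and 1178 and 1384 CPM in control libraries (-0.39 ± 0.14). P2RY1, an ADP receptor, had -1.19 ± 0.76 from levels under 2 CPM.

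**Figure D4:**
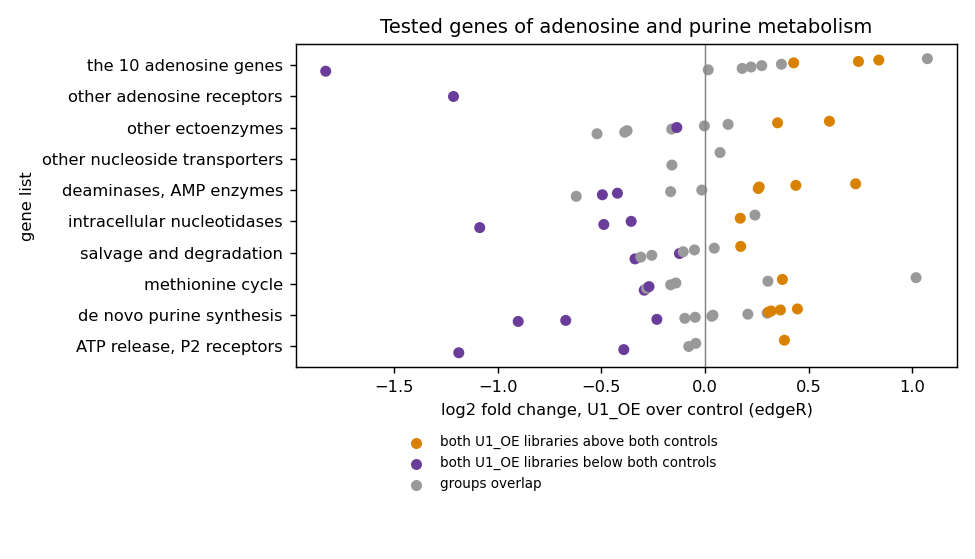
Log2 fold change of U1_OE over control by edgeR for the 10 adenosine genes and for 60 tested genes of 9 purine lists, with colours for genes whose U1_OE libraries both lie above or both below the controls. ADA (-1.83) lies left of every other point, while the 60 genes run from -1.22 to 1.02. The set was chosen by this difference of ADA, so its place here is no result.

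The surroundings of ADA on chromosome 20 were read as a feature that the choice of genes did not use. GENCODE v29 places 9 genes within 100 kb of ADA, of which 7 were in the table. In 5 of these 7, both U1_OE libraries were below both control libraries, against 22.0% of all tested genes. The 5 are not independent, because KCNK15-AS1 overlaps both CCN5 and KCNK15, ENSG00000276223 lies within KCNK15, and counting may have ignored the strand. Neither edgeR nor DESeq2 called any of the 7 genes in the fits of 4 libraries.

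On the side before the start of the ADA span, the nearest measured gene was KCNK15-AS1, 42.7 kb away, with 1.29 and 0.524 CPM in U1_OE and 2.12 and 2.32 CPM in control libraries. CCN5, a secreted matricellular protein 62.6 kb away, had 7.64 and 4.35 CPM in U1_OE and 13.0 and 22.1 CPM in control libraries, a log2 fold change of -1.55 ± 0.40. KCNK15, a potassium channel gene 93.5 kb away, had 11.3 and 3.88 CPM in U1_OE and 27.0 and 24.6 CPM in control libraries, with -1.77 ± 0.51. The log2 fold change of KCNK15 was -2.72 without U1_OE replicate 1 and -1.19 without U1_OE replicate 2, and that of CCN5 was -1.12 without control replicate 2. ENSG00000276223 had -1.78 ± 0.67 from about 2 CPM or less, and RIMS4, a synaptic gene at 99.6 kb, had -0.67 ± 0.87 with overlapping groups. On the other side, PKIG, at 0.35 ± 0.33, overlapped between groups, and SERINC3, a membrane protein gene 97.4 kb away, had 99.95 and 105 CPM in U1_OE and 115 and 110.1 CPM in control libraries, a log2 fold change of -0.13 ± 0.12. The larger negative values thus lay on 1 side of ADA.

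**Figure D5:**
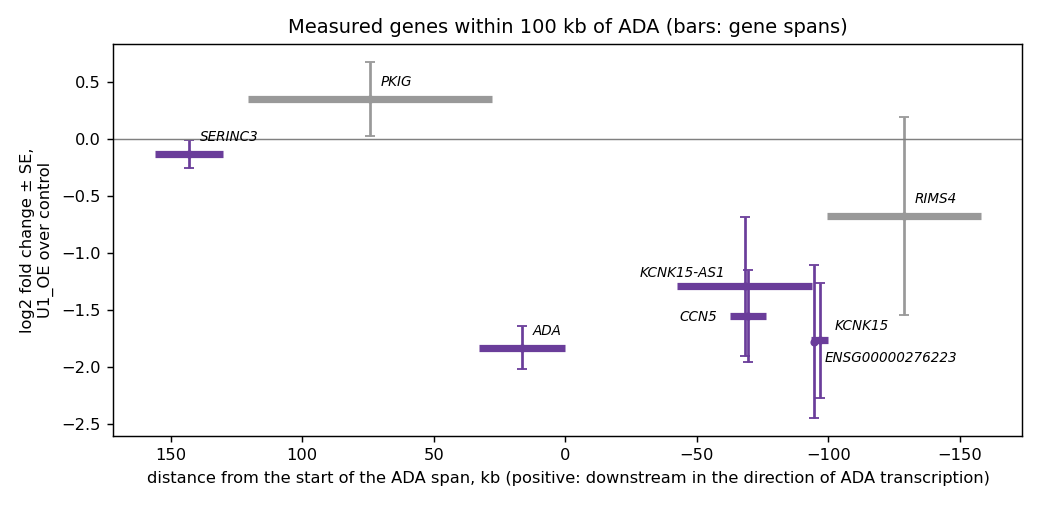
Log2 fold change of U1_OE over control (± SE) of ADA and of the 7 measured genes within 100 kb, placed by distance from the start of the ADA span, with bars for gene spans, purple where both U1_OE libraries lie below both controls and grey where the groups overlap. Over all 4 libraries ADA has -1.83, CCN5 -1.55 and KCNK15 -1.77, and PKIG (0.35) lies above zero.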

How the data were processed

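RNA-seq gene values of 4 libraries were used. The authors deposited estimated counts per gene, not normalised; per the submitters' processing notes Trim Galore, STAR, featureCounts and DESeq2 were used with hg38, and the origin of the fractional values was not given in the sources used here. Values were rounded and fitted with edgeR 4.0.16 in R 4.3.3 (filterByExpr, TMM, quasi-likelihood test, Benjamini-Hochberg over all tested genes, threshold 0.05). The SE of a log2 fold change was worked back from the F statistic. Depth of 16713505 to 19057423 counts limits precision mainly for genes of a few CPM, and 2 libraries per group limit it for the rest.

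The 10 genes and all lists were chosen with earlier results of these data known. Besides the 10, the text names the receptors, measured genes within 100 kb of ADA, and the 5 genes most like ADA. It also names up to 2 genes per purine list with the smallest p and a mean of at least 10 counts. ADA2, AMPD3, AK3, AK4 and AK5 were added after their values were seen. Exon lengths and spans come from GENCODE v29, matched to 82.4% of rows, and promoters from RefSeq on GRCh38.p14. Alternatives were unscaled library sizes, RLE factors, a minimum mean of 50 counts, no filter, limma-voom (limma 3.58.1), DESeq2 1.42.0, a replicate block and each library left out; leaving libraries out of DESeq2 was added after results were seen. The fits were tested on simulated data.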

Additional observations from a re-analysis of the deposited data

How the results depend on the processing

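By edgeR 0 genes were called under each scaling and filter, with the replicate block and with each library left out, and limma-voom called 0, whereas DESeq2 called 179 (101 higher, 78 lower), and 57 to 311 with 1 library left out (57 without control replicate 1, 63 without control replicate 2 and 311 without U1_OE replicate 2). In the fit of 4 libraries DESeq2 called ADA, by which the set was chosen, and 0 genes of the purine lists. With 1 library left out, the log2 fold change of ADA by DESeq2 lay between -1.99 and -1.63. These fits reuse the libraries in which ADA was first seen, so they give no separate support. Same-numbered libraries did not deviate together (correlation of -0.02 over 17317 genes), so the numbers are not taken as pairs, and with the replicate block the log2 fold change of ADA was -1.82. ADA, ADK, PNP, DPP4 and ADORA2B kept their sign in all 15 alternatives each. AHCY changed sign in 6 of 15, and NT5E, SLC29A1, ENTPD1 and SLC29A2 in 2 each. Of 148 alternative values of the 10 genes, 137 lay within 1 SD of the reported one. With 2 libraries per group, leaving 1 out can move a value little beyond that SD, so this count does not measure how steady the values are. By it PNP counted as unchanged at 0.34 without U1_OE replicate 2, against 1.07 over all libraries. With 1 library left out, 4 further genes crossed zero in edgeR: SLC29A4 ran from -0.19 to 0.30, SLC29A3 from -0.49 to 0.12, PKIG from -0.14 to 0.72 and RIMS4 from -2.03 to 0.047. With the same libraries left out of DESeq2, SLC29A4 was -0.17, SLC29A3 0.13, PKIG -0.12 and RIMS4 0.035 and 0.059. DESeq2 called PNP (1.58) and KCNK15 (-2.71) without U1_OE replicate 1, and AK1 without U1_OE replicate 2 (0.99). With the longest transcript in place of all exons, ADA ranked 1 of 10 per length in control libraries and 4 in U1_OE libraries. Where a group kept 1 library, its variation was taken from the remaining group. The median log2 fold change over all genes was -0.01 with TMM, 0.01 with RLE and -0.04 with unscaled library sizes. Among the 10 genes, ENTPD1 and SLC29A2 had the fewest counts.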

Other observations

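The genes whose pattern over the 4 libraries was most like that of ADA were, in order, MMP11, DDIT4, CILP, MAN1C1 and L1CAM, by the distance between centred log2(CPM + 1) profiles among 11604 named genes averaging 50 counts or more. The distances were 0.32, 0.32, 0.41, 0.46 and 0.46 log2 units. MMP11, a matrix metalloprotease of stromal cells, had 43.6 and 27.6 CPM in U1_OE and 104 and 146 CPM in control libraries. MAN1C1, a mannosidase of the Golgi, had 30.7 and 22.5 CPM in U1_OE and 78.9 and 74.5 CPM in control libraries. CILP, a cartilage matrix protein, had 1.97 and 1.73 CPM in U1_OE and 5.59 and 11.4 CPM in control libraries. None of the 5 is a gene of purine metabolism, and likeness over 4 libraries is a description. Of the 5, 4 were also among the nearest with 0.1 CPM added in place of 1, and all 5 with library size alone. ENTPD1 and SLC29A2 averaged under 50 counts and were not ranked. Among the other adenosine genes AHCY, with hardly any difference between groups, was the nearest to ADA at rank 5605. PNP, whose U1_OE libraries lay 2.32-fold apart, was the farthest at rank 11473. The difference of ADA, by which the set was chosen, enters each of these distances, so their order adds no result.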
